A study of Mus musculus with 2 samples.

Results

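Chromatin contacts mapped by Hi-C, in which neighbouring DNA ends in fixed nuclei are ligated and sequenced, are described here for 47 genes for developmental transcription factors: homeobox genes (such as Six2, Lhx1, Meis1, Otx1, Nkx2-1 and Barx1), T-box, paired box, forkhead, GATA and Zic genes and 2 basic helix-loop-helix genes. The 47 genes are a fixed list of regulators that are typical targets of Polycomb repression and stand outside the usual lists of hair genes. A gene was counted at a contact where either of its annotated ends lay within 10 kb of an anchor. All 47 were found among the 21900 protein-coding genes of the gene table (GRCm38), and 15 of them were at a contact in at least 1 of the 2 libraries.

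The cells were hair matrix keratinocytes, the proliferating epithelium of the hair bulb, taken from mice at postnatal day 4.5. A wild-type library (WT) was compared with a library from Tet2/Tet3 double knockouts (DKO), in which Krt14-Cre had removed both genes. The Krt14 promoter is active in basal epithelial cells, so that the deletion is aimed at the epithelium and precedes the matrix stage. The number of animals behind each library is not given in the sources used here. There were no replicates and hence no test, and a difference between the lists is a difference between these libraries, not one assigned to genotype. Contacts do not measure transcripts, so neither the cell type nor the deletion could be checked against expressed genes.

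Transcription factors of these families set the identity of organs and cell types in the embryo. In cells that do not use them, their CpG-rich promoters are often held silent by the Polycomb complexes, and their enhancers can lie far away in stretches with few other genes. TET2 and TET3 oxidise 5-methylcytosine, which in mammals lies mostly in CpG dinucleotides, and Polycomb-bound promoters are typically kept free of that mark. Neither Polycomb binding nor methylation was measured in these files.

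The unit of the lists is the enriched pixel, a pair of 5 kb bins on 1 chromosome with more contacts than its surroundings. The WT list held 5811 pixels and the DKO list 4872, and 1940 pixels were in both. The median DKO/WT ratio of expected counts at those pixels, a measure of relative depth, was 0.973. The median pixel had 18 observed contacts in both lists, so that counting error is wide at any single pixel. A list says nothing about pairs of bins that were not called, and a gene at no pixel is not shown to lack contacts.

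For 7 of the 15 genes at contacts the promoter sequence was at hand (RefSeq, GRCm38.p6, 250 bases before to 50 after the annotated start). In 4 of the 7 the annotated start lay within 10 kb of a contact anchor, and these promoters are shown because they are the sequences beside the anchors. They are Barx1 (chr13:48662786-48663085, plus strand), En1 (chr1:120602237-120602536, plus strand), Foxc1 (chr13:31806396-31806695, plus strand) and Meis1 (chr11:19018920-19019219, minus strand), written 5′ to 3′ with every CpG, the dinucleotide in which TET enzymes find most of their substrate, in capitals.
Barx1: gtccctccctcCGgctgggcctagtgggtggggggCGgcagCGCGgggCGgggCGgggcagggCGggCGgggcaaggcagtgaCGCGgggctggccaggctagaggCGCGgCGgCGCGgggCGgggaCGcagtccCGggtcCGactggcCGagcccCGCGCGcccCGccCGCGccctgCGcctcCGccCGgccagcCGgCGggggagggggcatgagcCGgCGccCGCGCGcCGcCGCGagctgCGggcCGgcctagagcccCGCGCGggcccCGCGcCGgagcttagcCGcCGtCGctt
En1: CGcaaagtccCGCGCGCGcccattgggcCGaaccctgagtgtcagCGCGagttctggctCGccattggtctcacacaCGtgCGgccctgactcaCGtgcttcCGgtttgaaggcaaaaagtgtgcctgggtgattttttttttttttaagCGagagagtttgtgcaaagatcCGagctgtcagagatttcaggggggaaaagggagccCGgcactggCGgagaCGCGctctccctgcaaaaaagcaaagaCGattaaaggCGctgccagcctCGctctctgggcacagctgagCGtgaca
Foxc1: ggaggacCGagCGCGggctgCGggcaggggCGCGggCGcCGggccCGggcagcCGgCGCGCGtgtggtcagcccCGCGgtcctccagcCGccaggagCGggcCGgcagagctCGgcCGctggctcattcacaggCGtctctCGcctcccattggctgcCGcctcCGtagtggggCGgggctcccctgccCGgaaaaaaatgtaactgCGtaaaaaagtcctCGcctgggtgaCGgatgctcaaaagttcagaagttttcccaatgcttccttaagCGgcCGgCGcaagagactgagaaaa
Meis1: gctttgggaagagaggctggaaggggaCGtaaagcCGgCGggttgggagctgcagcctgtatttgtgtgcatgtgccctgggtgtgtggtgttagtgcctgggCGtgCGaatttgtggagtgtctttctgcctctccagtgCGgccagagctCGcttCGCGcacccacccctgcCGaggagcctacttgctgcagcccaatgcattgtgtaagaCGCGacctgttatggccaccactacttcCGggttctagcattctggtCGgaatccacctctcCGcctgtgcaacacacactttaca
The Barx1 window held 50 CpGs, Foxc1 32, En1 23 and Meis1 15, against a median of 7 (quartiles 3 and 20) over 32851 promoter windows of the same length. Barx1, En1 and Foxc1 thus lay above the upper quartile, and Meis1 lay between the median and the upper quartile. A check of CpG content over the whole list is void, because only 32 of the 47 genes (68.1%) have an entry and 80% were required.
In Lmx1b, Meis2 and Six2 it was the other end of the gene that met the rule. Their promoter windows held 24, 13 and 37 CpGs, so that counts above the upper quartile were not confined to the promoters beside anchors. The Lmx1b anchor lay 81.1 kb from the promoter, and the Six2 anchor lay inside the gene and 18.2 kb from its start.

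Of the 47 genes, 11 were at a pixel in WT (23.4%, exact 95% interval 12.3 to 38.0) and 12 in DKO (25.5%, 13.9 to 40.4). Over all protein-coding genes the shares were 21.2% in WT and 20.1% in DKO, inside both intervals. Barx1, En1, Foxc2, Gata4, Gata6, Lmx1b, Meis1 and Tbx3, 8 genes (17.0%, 7.65 to 30.8), were at pixels in both libraries, against 12.9% of all genes. Only the WT list had pixels at Foxf1, Six2 and Tbx2 (3 genes, 6.38%, against 8.23% of all genes). Barx2, Bhlhe40, Foxc1 and Meis2 were at pixels in DKO alone (4 genes, 8.51%, against 7.13%). In all, 15 genes (31.9%, 19.1 to 47.1) were at a pixel in either library, against 28.3%. These shares are near the background, and no excess or lack of called contacts at the list as a whole was seen at this depth. With only pixels at an FDR under 0.01 in all 4 neighbourhoods, 7 of the 47 genes were at a pixel in WT, against 10.8% of all genes, and 4 in DKO, against 9.51%. At that FDR 4 genes were in both lists (against 5.97% of all genes), 3 in WT alone (Foxf1, Lmx1b and Tbx2, against 4.86%) and none in DKO alone (against 3.54%). Such pixels made up 46.2% of the WT pixels at the 47 genes and 29.6% of their DKO pixels, against 43.0% and 41.3% of all pixels.

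**Figure D1:**
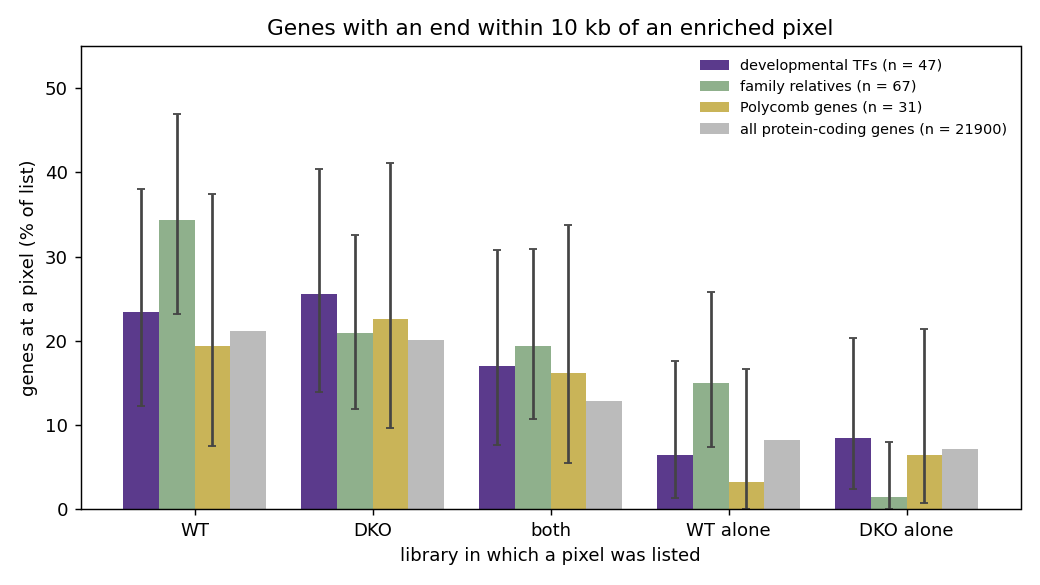
Share of genes (%, vertical axis) with an end within 10 kb of an enriched pixel, by library, for the 47 developmental transcription factors (TFs), 67 relatives from the same families, 31 Polycomb genes and all 21900 protein-coding genes. Error bars are exact 95% binomial intervals. The 47 genes stand at 23.4% in WT and 25.5% in DKO, beside 21.2% and 20.1% of all genes.

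By family, 2 of 3 GATA genes, 2 of 7 T-box genes, 3 of 8 forkhead genes, 7 of 20 homeobox genes and 1 of 2 basic helix-loop-helix genes were at a pixel. None of the 5 paired box genes (Pax1, Pax3, Pax6, Pax7 and Pax9) and neither Zic1 nor Zic2 was. Just inside the 10 kb limit, by the distance to the nearest anchor, were Barx2 (6.72 kb, DKO) and Foxc1 (6.65 kb, DKO). The first ones beyond it were Gbx2 (13.8 kb, DKO), Tbx5 (16.5 kb, WT) and Tbx1 (19.3 kb, WT).

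The 47 genes lay at 26 pixels in WT (16.98 to 38.1) and 27 in DKO (17.8 to 39.3), a DKO/WT ratio of 1.04 (0.583 to 1.85). The whole lists held 5811 pixels in WT and 4872 in DKO. These intervals treat pixels as independent, although neighbouring pixels share their contacts and 13 pixels at these genes were in both lists. Pixels whose anchors both lay within 20 kb were joined into loops, which gave 15 loops in each library. Each loop is described at its pixel with the most contacts. Enrichment means observed contacts over those expected from the surrounding donut of pixels. A loop is called shared where a pixel of the other library lay within 2 bins at both anchors. Of the 15 loops, 9 were shared in each library (60%, 32.3 to 83.7), against 52.6% of other WT loops with a gene end and 57.3% of such DKO loops. The median enrichment was 6.39 in WT (order-statistic interval 4.73 to 7.92) and 6.65 in DKO (5.25 to 7.97), against 5.28 and 5.02 at other loops with a gene end. Observed contacts were not higher, with medians of 15 in WT and 16 in DKO, against 19 at those other loops in each library. Median expected counts at pixels of the 47 genes were 3.20 in WT and 2.78 in DKO, against 3.63 and 3.72 over all pixels. The part of these lower expected counts in the enrichment was not tested. All 6 WT loops that were not shared were single pixels, as were 4 of the 6 in DKO, whereas 3 of the 9 shared loops were single pixels in each library.

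**Figure D2:**
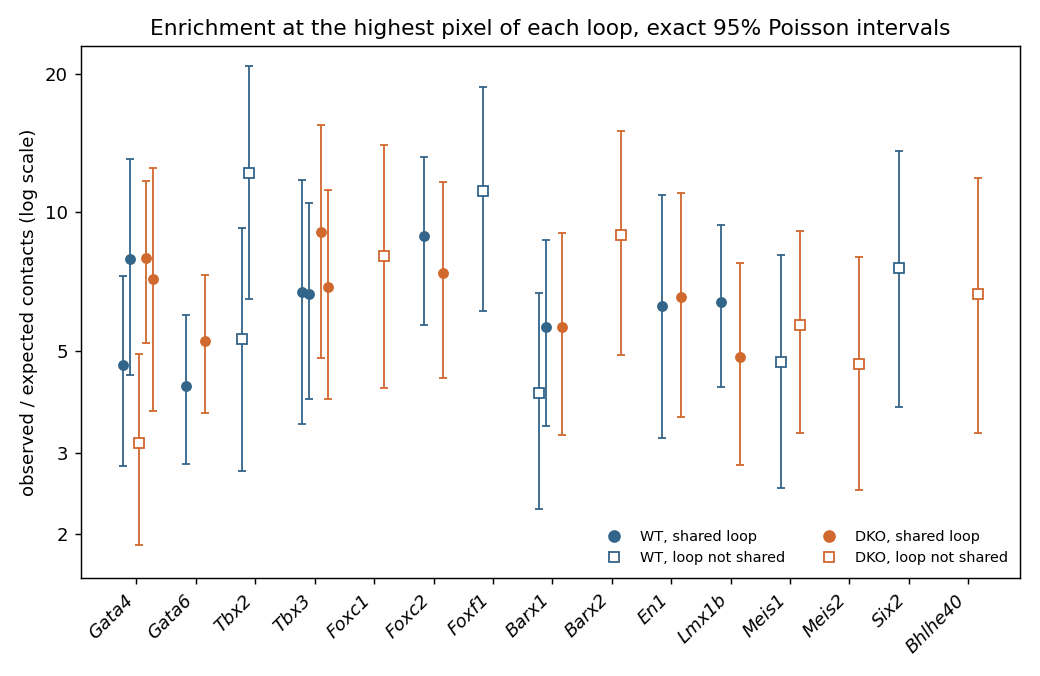
Observed over expected contacts (log scale) at the highest pixel of every loop at a developmental transcription factor gene, with exact 95% Poisson intervals. Blue is WT, orange is DKO, filled circles are shared loops and open squares are loops without a counterpart. The intervals of WT and DKO overlap at every gene with a loop in both libraries, and the highest values, 12.2 at Tbx2 and 11.2 at Foxf1, are open WT squares with expected counts of 1.07 and 1.26.

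Among the GATA genes, Gata4 had 4 pixels in WT and 5 in DKO, and Gata6 had 4 in each. Gata4, a zinc finger regulator of heart and endoderm (chromosome 14, 63198914 to 63271712), was the only gene of the list with shared loops in both directions. Toward lower coordinates its end in the bin 63195001 to 63200000 was joined to bins starting at 63065001, 63070001 and 63075001. In WT these 3 pixels had 16, 17 and 19 contacts, and in DKO 18, 26 and 17. The middle pixel was the highest of the loop in DKO (7.97 times expected, 5.21 to 11.7) and stood at 4.32 (2.51 to 6.91) in WT, while the pixels on either side differed less. An end of Neil2, which encodes a DNA glycosylase of base excision repair, lay 0.847 kb from the same anchor, so that these contacts cannot be assigned to Gata4 rather than Neil2. The other anchor held no protein-coding gene end, an end of the long non-coding RNA gene Gm35908 lay inside it, and Ctsb, Fdft1 and Neil2 lay between the anchors.

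Toward higher coordinates Gata4 was joined to a bin with an end of Blk, a kinase of B cells, with 15 contacts over 165 kb in WT (7.92, 4.43 to 13.1) and 12 contacts over 170 kb in DKO (7.15, 3.69 to 12.5). The anchors at Gata4 were neighbouring bins. The DKO anchor also lay within 10 kb of the end of Neil2, so that the DKO contact cannot be assigned to Gata4 rather than Neil2. The WT anchor lay beyond 10 kb of Neil2. Ends of the long non-coding RNA genes Gm36165 and Gm46458 lay inside the Blk bin in both libraries. A further DKO loop of 35 kb, a single pixel of 19 contacts (3.15, 1.89 to 4.91), joined the other end of Gata4 to a bin inside the gene and was not listed in WT.

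Gata6, the paralogue that marks endoderm and, in skin, the duct of the sebaceous gland (chromosome 18, 11052510 to 11085636), had 1 shared loop of 4 pixels in each library. Of these, 3 pixels were the same in both lists, each with a span of 35 kb, and they lay on a diagonal on which both anchors shifted together toward the gene. The pixel whose anchor held the Gata6 end had 30 contacts in WT (4.20, 2.83 to 5.99) and 35 in DKO (5.25, 3.65 to 7.30), the most of any pixel at the 47 genes. At the pixel starting at 11005001 there were 18 contacts in WT and 33 in DKO, and at the one starting at 11010001 there were 23 in WT and 17 in DKO, so that neighbouring pixels ranked the libraries in opposite orders. The partner side held no protein-coding gene end within 10 kb, and an end of the long non-coding RNA gene 9130001E16Rik lay 6.33 kb away. A span of 35 kb is the shortest in either list. Gata2, also in the list, was at no pixel.

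Among the T-box genes, Tbx3 had the longest contacts. Tbx3 encodes a repressor that patterns the limb and mammary gland (chromosome 5, 119670534 to 119684724). It was joined to the bin starting at 118780001 over 905 kb with 18 contacts in WT (6.64, 3.93 to 10.5) and 16 in DKO (6.88, 3.93 to 11.2). It was also joined to the bin starting at 118875001 over 815 kb with 12 contacts in WT (6.73, 3.47 to 11.7) and 13 in DKO (9.04, 4.81 to 15.5). Both loops were shared, and both libraries placed their highest pixel in the same bins. In each library 16 loops were longer than the 905 kb loop, out of 2902 in WT and 2641 in DKO. The nearest protein-coding gene to the far anchor was Med13l, a Mediator subunit, at 14.6 kb. In WT alone a further pixel of the loop came within 10 kb of Med13l, but that pixel was not within 10 kb of Tbx3. Only 2 other protein-coding genes had their midpoint within 500 kb of that of Tbx3. At an FDR under 0.01, Tbx3 was at no pixel in either list.

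Tbx2, the paralogue of Tbx3 (chromosome 11, 85832615 to 85841948), was at WT pixels alone. From the bin starting at 85845001 it was joined over 125 kb (12 contacts, 5.30, 2.74 to 9.26) and over 325 kb (13 contacts, 12.2, 6.49 to 20.8), and both loops spanned its neighbour Tbx4, the hindlimb T-box gene. The closest pixel of the DKO list lay 720 kb off at the farther anchor. The 325 kb loop, with 73 of 2902 WT loops of higher enrichment over the donut, ended inside Brip1 and 26.2 kb from the nearest end of that gene. Its enrichment was lower over the other neighbourhoods: 7.85 (bottom-left), 6.61 (horizontal) and 8.08 (vertical). Tbx1, Tbx4, Tbx5, Tbx15 and Tbx18 were at no pixel. Tbx5 lay under a WT loop of 310 kb, and Tbx1 under a loop of 175 kb in both libraries.

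Among the forkhead genes, Foxc2, a regulator of lymphatic vessels and mesenchyme (chromosome 8, 121116171 to 121118895), had 1 shared loop to a bin starting at 121510001. Its pixels had 23 and 24 contacts in WT and 16, 18 and 15 in DKO. The WT counts were thus higher at the 2 pixels listed in both, with DKO/WT enrichment ratios of 0.861 (0.438 to 1.67) and 0.737 (0.359 to 1.46), whose intervals include 1. Ends of Mthfsd (1.59 kb) and, for 1 pixel, of the forkhead gene Foxl1 (7.68 kb) lay near the same anchor. No gene end lay at the far anchor, where 1700018B08Rik was nearest at 15.8 kb.

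Foxf1, the mesenchymal forkhead gene of the same cluster (chromosome 8, 121084386 to 121088154), was joined the opposite way over 265 kb in WT alone, with 14 contacts (11.2, 6.10 to 18.7). An end of Mthfsd lay 1.63 kb from the same anchor, so that the contact cannot be assigned to Foxf1 rather than Mthfsd. The contact was a single pixel with an FDR under 0.01 in all neighbourhoods, and the far anchor lay 63.3 kb from Irf8. Foxc1, the paralogue of Foxc2, which acts in the eye, vessels and hair follicle stem cells (chromosome 13, 31806646 to 31810635), was joined in DKO alone over 615 kb, across Gmds, with 12 contacts (8.04, 4.15 to 14.0). The closest pixel of the WT list lay 835 kb off at the farther anchor. Foxa1, Foxa2, Foxd3, Foxl2 and Foxp1 were at no pixel.

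Among the homeobox genes, Barx1, which patterns stomach and molar teeth (chromosome 13, 48663036 to 48666507), had a shared loop to Phf2, a histone demethylase gene. Its highest pixel spanned 145 kb in both, with 20 contacts in WT (5.63, 3.44 to 8.69) and 17 in DKO (5.65, 3.29 to 9.04). WT had a second loop over 80 kb (15 contacts, 4.05, 2.26 to 6.67) to a bin with an end of the long non-coding RNA gene Gm36784 and no protein-coding gene end. En1, which specifies ventral limb ectoderm and eccrine glands (chromosome 1, 120602487 to 120607991), was joined to the same bin 580 kb away in both libraries, with 12 contacts in WT (6.25, 3.23 to 10.9) and 14 in DKO (6.56, 3.58 to 11.0). The far anchor lay 124 kb from Insig2, the nearest protein-coding gene.

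Lmx1b, the dorsal limb and nail regulator (chromosome 2, 33560965 to 33641208), was joined over 70 kb from its 3′ end. The pixel listed in both had 26 contacts in WT (6.39, 4.17 to 9.36) and 17 in DKO (4.85, 2.83 to 7.77), and its far bin held an end of the long non-coding RNA gene Gm13530. Meis1, a HOX cofactor (chromosome 11, 18880428 to 19019651), was the only gene joined to itself, with both ends near the anchors. The WT pixel spanned 135 kb (13 contacts, 4.73, 2.52 to 8.09) and the highest DKO pixel 155 kb (17 contacts, 5.68, 3.31 to 9.09). The pixels were 20 kb apart at the promoter side, so the gene was at a pixel in both libraries while its loop was not shared by the 2-bin rule. No other protein-coding gene had its midpoint within 500 kb of Meis1.

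The remaining homeobox contacts, and that of the basic helix-loop-helix gene Bhlhe40, were each in 1 library. Six2, a regulator of nephron progenitors (chromosome 17, 85662736 to 85688254), was joined in WT to a bin 395 kb away (11 contacts, 7.58, 3.78 to 13.6) inside Srbd1. Meis2, the paralogue of Meis1 (chromosome 2, 115861264 to 116067537), was joined in DKO to a bin inside its own body 125 kb away (13 contacts, 4.67, 2.49 to 7.99). Barx2, the paralogue of Barx1 (chromosome 9, 31846044 to 31913285), had a DKO loop of 3 pixels with 14 contacts each. Its pixel of highest enrichment spanned 375 kb (8.94, 4.89 to 15.0) and itself lay beyond 10 kb of the gene, and the other pixels of the loop met the rule. Bhlhe40, a circadian and stress-responsive repressor (chromosome 6, 108660629 to 108666925), had a DKO pixel that joined bins holding its own end and that of Arl8b, a lysosomal GTPase gene, over 120 kb (11 contacts, 6.65, 3.32 to 11.9). None of these 4 contacts had an FDR under 0.01 in all neighbourhoods.

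The loops of these genes included several long ones, and most had no protein-coding gene end within 10 kb of the far anchor. The median span was 165 kb in WT (order-statistic interval 120 to 395) and 155 kb in DKO (120 to 580), against 110 kb and 95 kb at other loops with a gene end. Spans of 500 kb or more made up 3 of 15 WT loops (20%, 4.33 to 48.1; En1 and both Tbx3 loops) and 4 of 15 DKO loops (26.7%, 7.79 to 55.1; the same 3 and Foxc1). At other loops with a gene end the shares were 3.27% (2.59 to 4.07) in WT and 2.67% (2.02 to 3.44) in DKO. The intervals treat loops as independent, although both Tbx3 loops share an anchor region and the WT and DKO loops are largely the same ones. With at least 20 observed contacts the median span was 108 kb in WT (4 loops) and 80 kb in DKO (2 loops), against 80 kb and 70 kb at other loops with a gene end. With gene ends within 5 kb the median was 265 kb in WT (11 loops) and 135 kb in DKO (12 loops), against 103 kb and 95 kb. Weak 1-pixel loops are those with an FDR sum above 0.02. Without them the median was 165 kb in WT (9 loops) and 265 kb in DKO (8 loops), against 115 kb and 105 kb. At an FDR under 0.01 in all neighbourhoods it was 155 kb in WT (8 loops) and 135 kb in DKO (4 loops), against 110 kb and 105 kb.

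**Figure D3:**
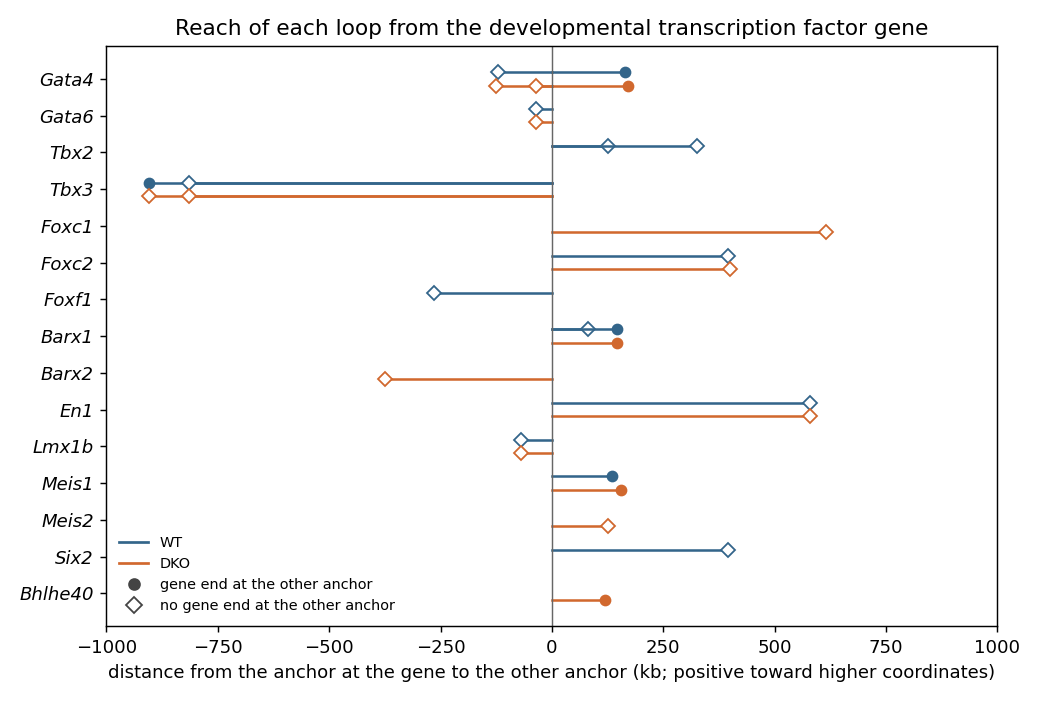
Distance in kb (horizontal axis) from the anchor at each gene to the other anchor, positive toward higher coordinates, with WT in blue above DKO in orange. Filled circles end at a protein-coding gene end and open diamonds at none within 10 kb. Tbx3 reaches 905 kb in both libraries and En1 580 kb, while most lines end in an open diamond.

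**Figure D4:**
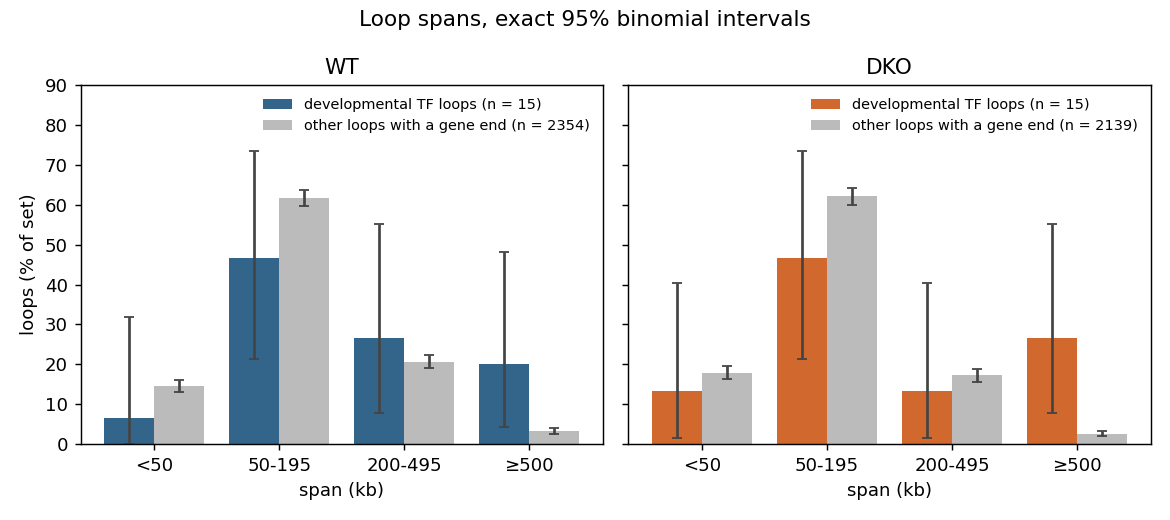
Share of loops (%, vertical axis) in 4 span classes for loops at the 47 genes (coloured, 15 per library) and other loops with a protein-coding gene end (grey), with exact 95% binomial intervals. In the class of 500 kb or more the coloured bars stand at 20% in WT and 26.7% in DKO, beside 3.27% and 2.67%. No loop behind these coloured bars had a pixel at an FDR under 0.01 in all neighbourhoods.

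A protein-coding gene end lay at both anchors of 4 of 15 loops in each library (26.7%, 7.79 to 55.1), including the self-contact of Meis1. Other loops with a gene end had one at both anchors in 50.4% in WT (48.3 to 52.4) and 51.8% in DKO (49.6 to 53.9). With gene ends within 20 kb, the share among loops at the 47 genes was 50% in WT and 52.9% in DKO, against 63.6% and 64.3% at other loops. The remaining 11 loops of each library did not all end away from genes. A non-coding gene end lay within 10 kb of the far anchor of 4 in each library, at Gata4, Gata6 and Lmx1b in both, Barx1 in WT and Barx2 in DKO. A further 2 ended inside a protein-coding gene, in WT those of Six2 (in Srbd1) and Tbx2 (in Brip1) and in DKO those of Gata4 and Meis2 inside their own bodies. That left 5 of 15 loops in each library (33.3%, 11.8 to 61.6) with neither: En1, Foxc2 and the 815 kb Tbx3 loop in both, Foxf1 and the 125 kb Tbx2 loop in WT, and Foxc1 and the 905 kb Tbx3 loop in DKO. Non-coding ends and gene bodies were looked up for these genes only, so these shares have no background among other loops. The gene partners were Phf2 (Barx1) and Blk (Gata4) in both libraries, Med13l (Tbx3) in WT and Arl8b (Bhlhe40) in DKO. Partners were taken over all pixels of a loop, and the WT pixel near Med13l was itself not within 10 kb of Tbx3. No single pixel thus joined Tbx3 to Med13l, and the 905 kb loop with its highest pixel in the same bins counted as neither in DKO. No loop joined 2 different genes of the list, although Six2 and Six3, Tbx2 and Tbx4, Tbx3 and Tbx5, Foxf1 and Foxc2, Nkx2-1 and Pax9, and Pax1 and Foxa2 lie near each other on a chromosome. The 47 genes also lay in sparser surroundings: a median of 4 other protein-coding genes (quartiles 3 and 9) had their midpoint within 500 kb, against 15 (8 and 27) for all protein-coding genes. The part of gene density in the spans and partners was not tested.

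At the 13 pixels listed in both libraries, which belong to 7 genes, the median DKO/WT ratio of enrichment was 1.04 (order-statistic interval 0.760 to 1.36), against 0.983 over all 1940 such pixels (quartiles 0.841 and 1.15). The ratio was above 1 at 7 of the 13. Past 1.5 times in either direction were 2 of 13, against 8.81% of all pixels listed in both. Both were higher in DKO, against 3.56% of all such pixels, and none was lower, against 5.26%. They were the middle Gata4 pixel, 1.85 (0.964 to 3.63), and the Gata6 pixel starting at 11005001, 1.78 (0.973 to 3.36). Both intervals include 1 and are not adjusted for the number of pixels. The lowest ratio, 0.699 (0.351 to 1.37), belonged to the neighbouring Gata6 pixel. Pixels of 1 loop share their contacts, so the 13 are not independent.

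**Figure D5:**
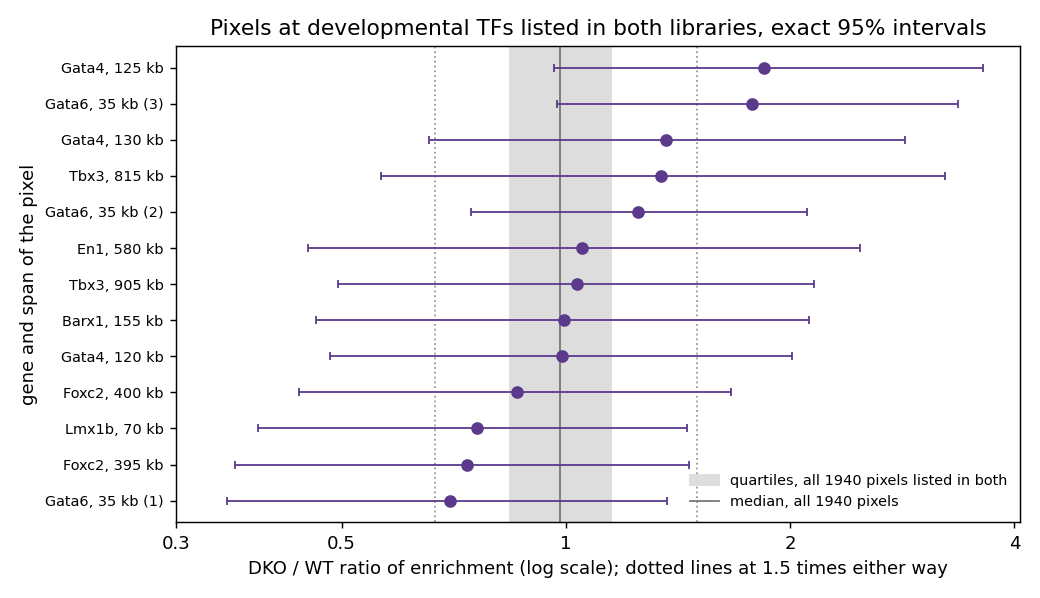
DKO/WT ratio of enrichment (log scale, horizontal axis) at each of the 13 pixels listed in both libraries, with exact 95% intervals, ordered by ratio and named by gene and span. The numbers 1 to 3 tell apart the Gata6 pixels of 35 kb, the grey band holds the quartiles of all 1940 pixels, and every interval crosses 1.

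The 32 genes at no pixel were not uniformly far from contacts. Their nearest anchor lay at a median of 241 kb in WT (16.5 to 2631) and 314 kb in DKO (13.8 to 2875), against medians of 207 and 238 kb for all protein-coding genes at no pixel of either library. Among them 5 lay under a WT loop (15.6%) and 4 under a DKO loop (12.5%), against 9.65% and 7.89% of all such genes. Six4, Lhx1 and Tbx1 did so in both libraries, Tbx4 and Tbx5 in WT alone and Gbx2 in DKO alone. The gene farthest from any WT anchor was Pax3, a neural crest and melanocyte regulator, at 2631 kb in WT and 1983 kb in DKO. Lhx9 was farthest from any DKO anchor, and its nearest anchors lay at 2360 kb in WT and 2875 kb in DKO. The other genes at no pixel were Six3, Pitx1, Lhx5, Isl1, Gata2, Nkx2-1, Nkx2-5, Otx1, Otx2, Hand2, Emx2 and those named above by family.

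Of 67 relatives from the same families that are not in the list, 24 were at a pixel (35.8%, 24.5 to 48.5), against 28.3% of all genes. By library, 23 were at a pixel in WT (34.3%, 23.15 to 46.9) and 14 in DKO (20.9%, 11.9 to 32.6). The shares of all genes were 21.2% and 20.1%, so the WT interval lay above its background. In both lists were 13 (19.4%, 10.8 to 30.9), against 12.9% of all genes, with 10 in the WT list alone and 1 in the DKO list alone. The shares in WT alone (14.9%, 7.40 to 25.7) and DKO alone (1.49%, 0.0378 to 8.04) stand against 8.23% and 7.13% of all genes, and against 3 and 4 genes among the 47. Some relatives share a pixel, such as Foxd2 and Foxe3 in WT, whereas the intervals treat genes as independent. Gata5, another cardiac GATA gene, had 6 pixels in each library with its highest at 42 contacts in WT (7.34, 5.29 to 9.93) and 37 in DKO (8.33, 5.86 to 11.5), more contacts than any pixel of the 47 genes. Hand1 had 7 pixels in WT and 5 in DKO, Pitx3 had 3 and 4, and Foxp4 had 3 and 2. Of 31 genes of the Polycomb complexes themselves, 8 were at a pixel (25.8%, 11.9 to 44.6), near the 28.3% of all genes. Ezh1, Rbbp4 and Pcgf2 were among those with pixels in both lists, and Phc1 and Yaf2 had pixels in the DKO list alone.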

How the data were processed

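Per the labels' protocols, sorted hair matrix cells underwent 10 minutes of fixation in formaldehyde (2%), digestion with the Arima enzyme mix and ligation and were sequenced as pairs of 150 bp reads. Pixels were listed with juicer_tools 1.22.01, per the file headers. Reads were processed with Juicer on GRCm38 (mm10), per the submitters' processing notes. The aligner, read filters and depth were not given in the sources used here. For each pixel the authors deposited a raw observed contact count, an expected signal on the same scale for each of 4 neighbourhoods, a score for the class of the expected count, and q-values (FDR). All deposited q-values were under 0.1.

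Gene ends came from RefSeq (GRCm38.p6) and coordinates are 1-based. Pixels were joined by single linkage at 20 kb, and enrichment used the donut expected count. Intervals are exact 95% intervals (Poisson for counts, Clopper-Pearson for shares, conditional binomial for ratios, binomial order statistics for medians). They cover counting error only and take expected counts as fixed. No test was run, for want of replicates. All 47 genes are accounted for, and all 15 at a pixel are described in full. For each loop the nearest partner genes are named, and of the relatives and Polycomb genes those in both libraries first. The genes and the lists were chosen with earlier results of these data known. Relatives beyond 4 per list were named after their values were seen. Alternatives varied the gene window, the FDR, the minimum of contacts, linkage, matching and the expected count used. Functions for linkage, matching and gene assignment were tested on simulated data. Analyses used Python 3.11.15, pandas 2.3.3 and scipy 1.17.1.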

Additional observations from a re-analysis of the deposited data

How the results depend on the processing

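No paired analysis was possible because the design holds a single WT and a single DKO library, and no replicate could be left out. Under 16 other settings 128 values were recomputed. Of these, 92 were inside the interval of the reported value (counts: within a factor of 1.5) and 36 were not. With gene ends within 5 kb there were 16 WT and 17 DKO pixels, and the median WT span was 265 kb. A gene lay at the partner of 9.09% of WT and 25% of DKO loops, against 41.7% and 45.1% at other loops with a gene end. With gene ends inside the anchor bin, WT had 4 genes, 6 pixels and 4 loops, and DKO had 5 genes, 7 pixels and 5 loops. Of the genes, 3 were in both lists, 1 only in WT and 2 only in DKO. In that setting 0% of WT and 20% of DKO loops had a gene at the partner, against 25.9% and 30.9% at other loops with a gene end. With gene ends within 20 kb, 5 genes were in WT alone, and 50% of WT and 52.9% of DKO loops had a gene at the partner. At an FDR under 0.01 in all neighbourhoods, WT had 7 genes, 12 pixels and 8 loops, and DKO had 4 genes, 8 pixels and 4 loops. At that FDR 4 genes were in both and 0 in DKO alone, and 50% of WT and 100% of DKO loops were shared. The order of the libraries by genes turned around. With at least 20 observed contacts, WT had 4 genes, 6 pixels and 4 loops, DKO had 2 genes, 3 pixels and 2 loops, 1 gene was in both and 1 in DKO alone. Under that minimum 25% of WT and 50% of DKO loops were shared, and median spans were 107.5 kb in WT and 80 kb in DKO. The minimum held for both lists, so a loop lost its match where the other library had fewer contacts. A gene partner was present at 25% of WT and 0% of DKO loops, against 53.0% and 52.8% at other loops with a gene end. Without weak 1-pixel loops, 9 WT and 8 DKO loops were left, and the median DKO span was 265 kb. Settings that keep fewer pixels leave fewer genes by construction. For the other gene windows and the minimum of contacts no share of all genes is given, so those gene counts have no background. The median ratio of enrichment ran from 0.919 (observed counts over relative depth) to 1.12 (bottom-left expected counts), on both sides of 1. No pixel of these genes had more than 35 contacts, and every interval of the ratio at the pixels listed in both libraries included 1. The smallest detectable difference was not computed, and without replicates no difference could be assigned to genotype.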
